A study of Rattus norvegicus with 54 samples.

Results

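Bile acid synthesis and export were followed through 10 genes of the rat liver: the synthesis enzymes *Cyp7a1*, *Cyp8b1* and *Cyp27a1*, the conjugating enzymes *Slc27a5* and *Baat*, the canalicular export pumps *Abcb11* and *Abcb4*, the uptake carrier *Slc10a1*, and the regulators *Nr1h4* and *Nr0b2*. They were taken by name, as the probe sets whose only gene symbol in the array annotation is one of these 10. Each gene had 1 probe set, so that 10 of the 15310 probe sets with 1 symbol (14506 genes) and of the 29214 probe sets on the array are described. Gene expression in Wistar rats was read on GeneChip Rat Gene ST arrays from total RNA of the liver and of skeletal muscle of the hind limb, in a study of the adaptation to extra-uterine life. The 24 liver arrays comprised 4 each from foetuses of day 16 (F16), day 20 (F20) and day 22 (F22, the last day before birth), neonates of day 1 (P1) and day 4 (P4), and adults of day 90 (P90). The 30 muscle arrays comprised 5 each of F16, F18, F20, F22, P1 and P4. The paper that reported the data left the adult liver and F18 muscle arrays out of its own analyses and conclusions. All animals were of 1 strain without a treatment, foetuses were taken by Caesarean section, standard chow was freely available, and the arrays of a group are biological replicates by their labels. Whether foetuses or pups of a group were littermates, and when P1 pups had last suckled, is not stated in the labels or methods. Values are log2 signals after robust multi-array average (RMA), in which a step of 1 is a 2-fold change.

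Bile acids are made from cholesterol in hepatocytes. *Cyp7a1* starts the classic route by 7-alpha-hydroxylation of cholesterol and is its rate-limiting enzyme, *Cyp8b1* adds the 12-alpha-hydroxyl group that makes cholic acid, and the mitochondrial *Cyp27a1* oxidises the side chain and starts the alternative route. *Slc27a5* activates bile acids to their CoA thioesters and *Baat* joins these to taurine or glycine. *Abcb11* (the bile salt export pump) and *Abcb4* (a phospholipid floppase) carry bile salts and phosphatidylcholine into the canaliculus, and *Slc10a1* (NTCP) takes bile salts returning from the gut up from the blood. *Nr1h4* encodes FXR, the nuclear receptor for bile acids, and its target *Nr0b2* encodes SHP, a repressor known to act on *Cyp7a1* and *Cyp8b1*.

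Nuclear receptors bind elements related to AGGTCA, so the members' promoters are shown for these letters. RefSeq promoters on GRCr8, from 250 bases before to 50 bases after the start site of a transcript, were matched for 7 of the 10 genes, while *Cyp7a1*, *Abcb11* and *Nr1h4* were not matched. The 4 below are the 2 that hold a searched element (*Slc10a1* and *Cyp27a1*) and those of the genes with the steepest step at birth in synthesis and regulation (*Cyp8b1* and *Nr0b2*). They are written 5′ to 3′ on the strand of the gene, with matches to AGGTCA, CAAGGTCA or GTTAAT on either strand in capitals. They lie at chr6:106357895-106358194 (minus strand), chr9:83713282-83713581 (plus), chr8:130457543-130457842 (minus) and chr5:151062910-151063209 (plus). The annotated *Cyp27a1* gene begins at chr9:83712402, before its window, so that the start site used for it lies inside the gene.
Slc10a1 promoter: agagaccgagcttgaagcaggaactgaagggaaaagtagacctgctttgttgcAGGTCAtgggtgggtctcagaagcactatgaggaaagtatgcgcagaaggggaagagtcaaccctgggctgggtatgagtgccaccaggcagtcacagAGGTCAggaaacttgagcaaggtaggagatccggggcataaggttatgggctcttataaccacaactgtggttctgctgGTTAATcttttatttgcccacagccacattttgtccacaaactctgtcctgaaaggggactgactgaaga
Cyp27a1 promoter: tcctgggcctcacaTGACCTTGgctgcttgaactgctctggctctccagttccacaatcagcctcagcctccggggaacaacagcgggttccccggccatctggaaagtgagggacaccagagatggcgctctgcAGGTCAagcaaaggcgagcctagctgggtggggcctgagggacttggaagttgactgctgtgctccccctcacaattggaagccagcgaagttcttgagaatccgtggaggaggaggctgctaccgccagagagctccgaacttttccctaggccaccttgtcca
Cyp8b1 promoter: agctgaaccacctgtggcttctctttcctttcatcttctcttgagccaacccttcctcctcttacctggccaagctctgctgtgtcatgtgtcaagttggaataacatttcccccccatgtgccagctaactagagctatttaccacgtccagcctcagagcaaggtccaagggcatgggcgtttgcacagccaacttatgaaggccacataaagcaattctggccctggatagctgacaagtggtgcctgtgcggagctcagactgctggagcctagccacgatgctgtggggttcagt
Nr0b2 promoter: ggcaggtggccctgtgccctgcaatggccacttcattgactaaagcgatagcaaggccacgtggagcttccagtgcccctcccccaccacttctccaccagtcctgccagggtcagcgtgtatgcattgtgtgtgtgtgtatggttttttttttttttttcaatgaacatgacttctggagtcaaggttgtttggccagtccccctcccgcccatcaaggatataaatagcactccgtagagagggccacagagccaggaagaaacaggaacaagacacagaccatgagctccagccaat
In *Slc10a1*, AGGTCA began at -197 and -99 from the start site and GTTAAT, a core of HNF1 sites, at -20. In *Cyp27a1*, AGGTCA began at -115, and at -236 on the opposite strand, where it lay inside the longer element CAAGGTCA and counts under both. AGGTCA was thus found in 2 of the 7 promoters and in 16.2% of all 33469 promoters of that length. CAAGGTCA was in 1 of the 7 and in 1.52% of all, and GTTAAT in 1 of the 7 and in 7.45% of all. A pair of AGGTCA elements 1 base apart was in none of the 7, either as a direct repeat (0.0538% of all promoters) or as an inverted repeat (0.0269%). These counts describe letters within 300 bases and were not set against the expression values.

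Array medians lay between 7.06 and 7.16 and the mean correlation of an array with its group between 0.983 and 0.997. The lowest was P1 replicate 1, which also stood apart in several of these genes: among the 4 arrays of P1 it was the highest for *Cyp7a1*, *Abcb4* and *Abcb11* and the lowest for *Cyp8b1*, *Slc27a5*, *Baat* and *Slc10a1*. The members' changes over birth are therefore also given without it. Hepatocyte markers were checked against the tissue label and were high at every age, with *Alb* (albumin) at 13.84 on average at P90 and 13.70 at F16. The mean level of 12 such markers lay between 13.12 and 13.13 over the P90 arrays, against 12.43 to 12.53 over the F16 arrays. That of 10 erythroid markers, from the blood-forming cells of the foetal liver, lay between 11.95 and 12.05 at F16, between 10.23 and 10.63 at P1 and between 7.22 and 7.37 at P90. In such bulk tissue, fewer cells of a type and less RNA per cell cannot be told apart.

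All 10 genes changed over the 6 time points (limma F-test, adjusted p at most 1.2e-11), as did 84.3% of all probe sets. All 10 were higher at P90 than at F16, against 37.9% of all probe sets that rose and 35.5% that fell. The median log2 change of the 10 was 4.67, and that of all probe sets was 0.07. By role, the synthesis enzymes *Cyp7a1*, *Cyp8b1* and *Cyp27a1* were 27.3-fold, 73.5-fold and 11.4-fold higher in the adult, and the conjugating enzymes *Slc27a5* and *Baat* 23.8-fold and 31.8-fold. The carriers *Abcb11* and *Slc10a1* were 61.0-fold and 30.8-fold higher, and *Abcb4* 1.61-fold (log2 change 0.69, SE 0.13, limma adjusted p = 4.7e-05). The regulators *Nr1h4* and *Nr0b2* were 10.99-fold and 4.44-fold higher. Arrays of P90 and F16 did not overlap in any of the 10. How many of all probe sets were also free of overlap was not counted, so that this separation describes the members only. No detection values were used, and the F16 means of *Cyp7a1* (5.96), *Nr0b2* (6.05), *Cyp8b1* (6.10), *Abcb11* (6.32) and *Baat* (6.58) were in the lower 31% of all probe sets. Their F16 signals were therefore not shown to be above unspecific signal, folds against them may understate the change, and the order of such folds and of the onsets rests on this scale.

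**Figure D1:**
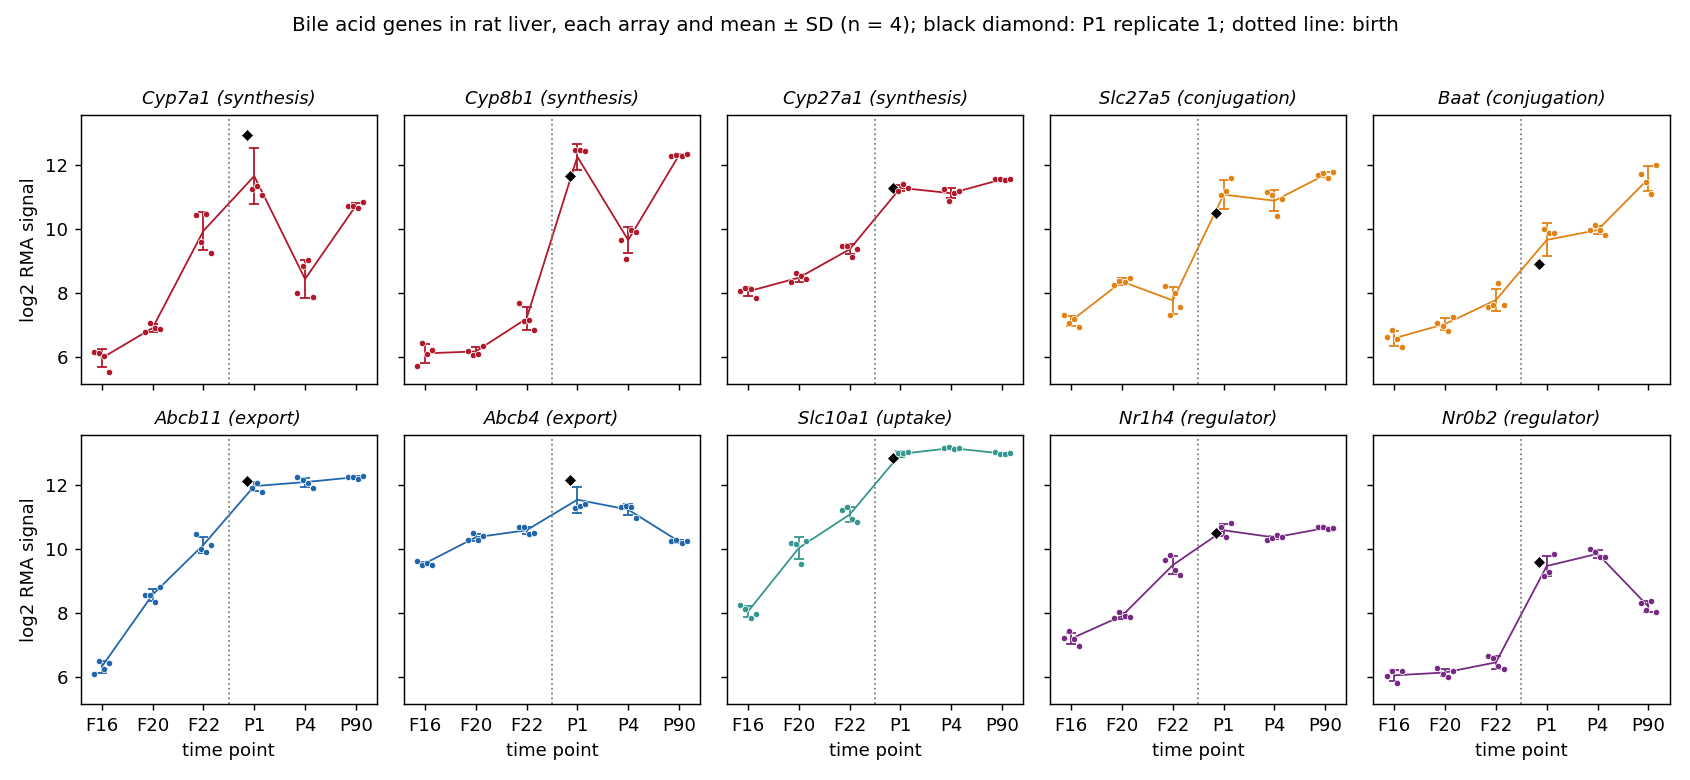
Log2 RMA signal (vertical axes) of the 10 bile acid genes in liver at 6 time points (horizontal axes). Points are single arrays, lines join group means, bars are the SD of 4 arrays, black diamonds mark P1 replicate 1 and the dotted line marks birth. *Abcb11* and *Slc10a1* climbed from F20 on, *Cyp8b1* and *Nr0b2* stepped up at P1, and *Cyp7a1* and *Cyp8b1* dipped at P4.

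The order of onset was taken as the first time point at which a gene was at least 1 log2 unit above F16 with an adjusted p of at most 0.05. Among these 10, the carriers on both sides of the bile salt circuit across the hepatocyte came first, which did not extend to the further carriers listed below. *Slc10a1* and *Abcb11* had their onset at F20, together with *Slc27a5*, which makes 3 of 10 members against 1.13% of all probe sets. That of *Slc27a5* did not hold at F22, where it was 0.64 above F16, under the limit, with overlapping arrays. *Cyp7a1*, *Cyp8b1*, *Cyp27a1*, *Baat*, *Abcb4* and *Nr1h4* followed at F22, 6 of 10 against 3.63% of all probe sets. *Nr0b2* came last, at P1, 1 of 10 against 3.23%. None had its onset at P4 (0.699% of all) or P90 (3.48%), and 87.8% of all probe sets had none. *Cyp8b1* was just over the limit at F22 (log2 change from F16 1.09), and *Abcb4* (1.04) and *Baat* (1.198) were also near it, as was *Slc27a5* at F20 (1.23), while *Cyp7a1* (0.94) and *Abcb4* (0.82) had been just under it at F20. Without F16 replicate 1 or F22 replicate 1, the onset of *Cyp8b1* moved to P1, so that 2 members had theirs there.

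Another description was the share of the log2 rise between F16 and the gene's highest group mean that had been completed by F22. It was 69.9% for *Cyp7a1*, 66.5% for *Nr1h4*, 64.3% for *Abcb11*, 59.3% for *Slc10a1* and 52.1% for *Abcb4*. It was lower for *Cyp27a1* (37.5%), *Baat* (24%), *Cyp8b1* (17.5%), *Slc27a5* (14.0%) and *Nr0b2* (10.7%). Without P1 replicate 1 it was 75.6% for *Cyp7a1* and 57.9% for *Abcb4*, which had their highest mean at P1. On the log2 scale the rate-limiting enzyme, the bile acid receptor and the carriers had thus covered over 50% of their rise before birth. This rests on the scale: of the rise in signal itself, under 50% had been completed by F22 in all 10, with 39.3% for *Nr1h4*, 35.3% for *Abcb4*, 29.1% for *Cyp7a1*, 21.8% for *Abcb11* and 21.4% for *Slc10a1*. It was 14.4% for *Cyp27a1* and between 1.55% and 4.20% for *Cyp8b1*, *Baat*, *Slc27a5* and *Nr0b2*. The highest group mean was at P1 for *Cyp7a1* and *Abcb4*, at P4 for *Slc10a1* and *Nr0b2* and at P90 for the remaining 6.

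**Figure D2:**
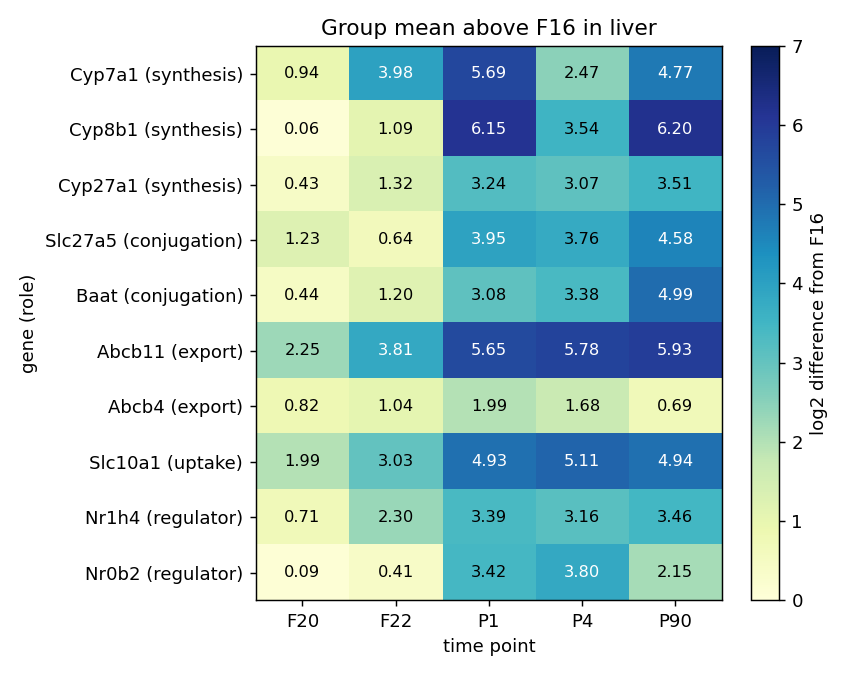
Difference of the group mean from F16 in liver (log2, colour and printed value) for each gene (rows, with its role) at F20, F22, P1, P4 and P90 (columns), n = 4 arrays per time point. At F20 *Abcb11* (2.25) and *Slc10a1* (1.99) were furthest above F16, at F22 *Cyp7a1* (3.98) and *Abcb11* (3.81), and at P1 *Cyp8b1* (6.15) and *Cyp7a1* (5.69).

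Among the synthesis enzymes, *Cyp7a1* had its largest log2 rise before birth, a peak at P1 and a dip at P4. On the signal scale *Cyp7a1* had completed 29.1% of its rise by F22. It read 6.15, 6.12, 6.03 and 5.53 at F16, 6.78, 7.05, 6.89 and 6.87 at F20, and 10.43, 9.59, 10.46 and 9.26 at F22. After birth it read 12.95, 11.26, 11.34 and 11.05 at P1, 7.98, 8.83, 9.03 and 7.88 at P4, and 10.70, 10.72, 10.65 and 10.83 at P90. No neighbouring time points overlapped, and the order of levels was F16, F20, P4, F22, P90 and P1. The arrays of F22, P1 and P4 were spread more widely (SD 0.61, 0.87 and 0.58) than those of P90 (SD 0.08).

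Between F22 and F20, *Cyp7a1* was 8.21-fold higher at F22 (log2 change 3.04, SE 0.33, limma adjusted p = 1.7e-07), rank 16 of 15310 probe sets from the top. The change over birth, P1 against F22, was 3.28-fold (1.72, SE 0.33, limma adjusted p = 1.9e-04). It was 2.43-fold without P1 replicate 1 (1.28, SE 0.26, adjusted p = 4.0e-04 in the same limma model). The earlier step between F20 and F16 was 1.92-fold (0.94, SE 0.33, limma adjusted p = 0.042), and its call was lost when any 1 of the 8 arrays of F16 and F20 was left out (adjusted p between 0.056 and 0.13). At P4 *Cyp7a1* was 9.32-fold lower than at P1 (-3.22, SE 0.33, limma adjusted p = 1.1e-06), rank 2 of 15310 from the bottom. Without P1 replicate 1 it was 6.91-fold lower (-2.79, SE 0.26, limma adjusted p = 2.9e-07). The adult was 4.91-fold above P4 (2.29, SE 0.33, limma adjusted p = 2.8e-06).

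*Cyp8b1* stayed at its lowest level through F20 and made its main step over birth. It read 5.71, 6.43, 6.07 and 6.21 at F16, 6.18, 6.05, 6.07 and 6.35 at F20, and 7.67, 7.13, 7.14 and 6.83 at F22. It then read 11.64, 12.47, 12.48 and 12.43 at P1, 9.66, 9.07, 9.97 and 9.90 at P4, and 12.29, 12.32, 12.28 and 12.33 at P90. F16 and F20 overlapped, as did P1 and P90, and all other neighbours in the order of levels were apart.

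At P1 *Cyp8b1* was 33.5-fold above F22 (log2 change 5.06, SE 0.20, limma adjusted p = 3.3e-14), rank 7 of 15310 from the top, and 38.5-fold without P1 replicate 1 (5.27, SE 0.18). At P4 it was 6.10-fold below P1 (-2.61, SE 0.20, limma adjusted p = 3.4e-08), rank 4 of 15310 from the bottom, and 7.02-fold below without P1 replicate 1 (-2.81, SE 0.18). It was 6.31-fold higher at P90 than at P4 (2.66, SE 0.20). *Cyp8b1* thus dipped at P4 together with *Cyp7a1*, and these were the only members that fell there.

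The timing of these enzymes was compared by the difference of their log2 values within each array, tested between adjacent time points by an exact permutation test (2-sided, 4 against 4 arrays, smallest p 0.0286). In all, 6 pairs of members were tested over 5 intervals, and 21 of the 30 differences passed, all at an exact p of 0.0286 and an adjusted p of 0.041. *Cyp7a1* rose more than *Cyp8b1* between F22 and F20 (difference 2.01, SE 0.23) and less between P1 and F22 (-3.35, SE 0.67). Without P1 replicate 1 that last difference was -3.99 (SE 0.22), though 4 against 3 arrays cannot give an exact p below 0.0571. Their fall at P4 differed by -0.61 (SE 0.75, exact adjusted p = 0.57), a value that was 0.02 (SE 0.40) without P1 replicate 1. Adjacent intervals share a group, so that a high or low F22 enters both of the first comparisons in opposite directions.

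*Cyp27a1* rose without a dip of comparable size. Its arrays ranged from 7.83 to 8.16 at F16, 8.33 to 8.62 at F20, 9.13 to 9.48 at F22, 11.19 to 11.39 at P1, 10.88 to 11.26 at P4 and 11.53 to 11.57 at P90. Only P4 and P1 overlapped. It was 3.79-fold higher at P1 than at F22 (log2 change 1.92, SE 0.09, limma adjusted p = 2.4e-13), and its change at P4 from P1 was -0.17 (SE 0.09, limma adjusted p = 0.25). Between P4 and P1, *Cyp7a1* fell further than *Cyp27a1* changed (difference -3.05, SE 0.56, exact adjusted p = 0.041), also without P1 replicate 1 (-2.62, SE 0.36).

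Of the conjugating enzymes, *Slc27a5* had an early rise, a fall before birth and a large step after it. It read 7.31, 7.06, 7.18 and 6.93 at F16, 8.23, 8.37, 8.33 and 8.47 at F20, and 8.21, 7.29, 8.00 and 7.55 at F22. At P1 it read 10.49, 11.05, 11.17 and 11.58, at P4 11.15, 11.05, 10.40 and 10.92, and at P90 11.67, 11.75, 11.59 and 11.77. All F22 arrays were below all F20 arrays, although 8.21 and 8.23 nearly touch. F22 overlapped with F16, and P4 with P1.

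*Slc27a5* was 2.35-fold higher at F20 than at F16 (log2 change 1.23, SE 0.19, limma adjusted p = 5.5e-05). It was 1.51-fold lower at F22 than at F20 (-0.59, SE 0.19, limma adjusted p = 0.018), a call that was lost without F22 replicate 2 (-0.43, adjusted p = 0.093 in limma) or F22 replicate 4 (-0.52, adjusted p = 0.060). At P1 it was 9.93-fold above F22 (3.31, SE 0.19, limma adjusted p = 1.2e-11), and 11.4-fold without P1 replicate 1 (3.51, SE 0.18).

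*Baat*, the next enzyme in the pathway, rose at F22 against F20 and again at P1 and, outside the synthesis enzymes, had the largest rise between P4 and P90. It averaged 6.58 ± 0.23 at F16, 7.02 ± 0.18 at F20, 7.78 ± 0.35 at F22, 9.65 ± 0.51 at P1, 9.96 ± 0.13 at P4 and 11.57 ± 0.39 at P90 (SD, n = 4 each). Its P90 arrays, at 11.72, 11.46, 11.09 and 11.997, were all above the P4 arrays at 9.96, 10.13, 9.95 and 9.82 (3.04-fold, log2 change 1.61, SE 0.21, limma adjusted p = 8.0e-07). P1 was 3.68-fold above F22 (1.88, SE 0.21), and 4.39-fold without P1 replicate 1 (2.13, SE 0.18). Compared within arrays, the signed log2 change of *Slc27a5* minus that of *Baat* was 0.79 (SE 0.13) between F20 and F16. It was -1.34 (SE 0.25) between F22 and F20, where *Slc27a5* changed by -0.59 and *Baat* by 0.75. Between P1 and F22 it was 1.43 (SE 0.27, and 1.37 without P1 replicate 1). Each of these differences had an exact adjusted p of 0.041 with all arrays.

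The export pump *Abcb11* was among the earliest to rise. It read 6.08, 6.49, 6.25 and 6.45 at F16, 8.55, 8.57, 8.35 and 8.81 at F20, and 10.47, 10.01, 9.92 and 10.12 at F22. At P1 it read 12.11, 11.91, 12.05 and 11.80, at P4 12.25, 12.15, 12.06 and 11.92, and at P90 12.24, 12.27, 12.20 and 12.28. Each step up to P1 separated all arrays, while P4 overlapped with both P1 and P90.

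*Abcb11* was 4.77-fold higher at F20 than at F16 (log2 change 2.25, SE 0.11, limma adjusted p = 1.0e-12), a minimum if its F16 signal was unspecific. It was 2.95-fold higher at F22 than at F20 (1.56, SE 0.11) and 3.57-fold higher at P1 than at F22 (1.84, SE 0.11; 3.46-fold without P1 replicate 1). The changes at P4 from P1 (0.13, SE 0.11) and at P90 from P4 (0.15, SE 0.11) did not pass (limma adjusted p = 0.55 and 0.25).

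*Slc10a1*, which brings bile salts in from the blood, took nearly the same course. It read 8.25, 8.11, 7.84 and 7.98 at F16, 10.18, 10.17, 9.52 and 10.27 at F20, and 11.23, 11.32, 10.93 and 10.83 at F22. It read 12.86, 12.996, 13.001 and 13.04 at P1, 13.17, 13.18, 13.12 and 13.16 at P4, and 13.02, 12.97, 12.97 and 12.99 at P90. Each step up to P1 separated all arrays. After birth all 12 values lay between 12.86 and 13.18, where the highest value of any probe set on a liver array was 14.1.

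*Slc10a1* was 3.97-fold higher at F20 than at F16 (log2 change 1.99, SE 0.13, limma adjusted p = 5.8e-11), 2.06-fold higher at F22 than at F20 and 3.72-fold higher at P1 than at F22 (1.90, SE 0.13; 3.82-fold without P1 replicate 1). Its difference in change from *Abcb11* did not pass in the first 4 intervals, at -0.27 (SE 0.18), -0.52 (SE 0.17), 0.06 (SE 0.17) and 0.06 (SE 0.13) in order of time (exact adjusted p between 0.075 and 0.80). Between P90 and P4 it passed, at -0.32 (SE 0.07, exact adjusted p = 0.041), while neither gene passed by itself.

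*Abcb4*, which brings phospholipid into bile, had the smallest change between F16 and P90, and with *Nr0b2* it was the only member that fell between P4 and P90. It averaged 9.55 ± 0.06 at F16, 10.37 ± 0.10 at F20, 10.59 ± 0.12 at F22, 11.54 ± 0.40 at P1, 11.23 ± 0.18 at P4 and 10.24 ± 0.04 at P90 (SD, n = 4 each). The P90 arrays (10.25, 10.27, 10.18 and 10.24) were all below the P4 arrays (11.31, 11.34, 11.32 and 10.96), a 1.99-fold lower signal (log2 change -0.996, SE 0.13, limma adjusted p = 5.8e-07). P1 was 1.94-fold above F22 (0.96, SE 0.13, limma adjusted p = 2.4e-06), and 1.69-fold without P1 replicate 1, whose 12.15 stood above 11.28, 11.35 and 11.40 in the others. The signed log2 change of *Abcb11* minus that of *Abcb4* was above 0 in every interval (exact adjusted p = 0.041 each). It lay between 0.44 (SE 0.17) at P4 against P1 and 1.44 (SE 0.15) at F20 against F16. At P4 against P1 *Abcb11* changed by 0.13 and *Abcb4* by -0.31, and at P90 against P4 by 0.15 and -0.996. In these intervals the downward change of *Abcb4* was thus the larger. Without P1 replicate 1 the smallest of the differences, at P4 against P1, was 0.29 (SE 0.11).

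The regulators parted in time. *Nr1h4* (FXR) read 7.21, 7.43, 7.18 and 6.98 at F16, 7.84, 8.03, 7.90 and 7.86 at F20, and 9.65, 9.81, 9.33 and 9.20 at F22. It read 10.50, 10.68, 10.36 and 10.80 at P1, 10.29, 10.35, 10.43 and 10.38 at P4, and 10.68, 10.68, 10.62 and 10.65 at P90. Each foetal step and that over birth separated all arrays, with the largest between F22 and F20 (3.01-fold, log2 change 1.59, SE 0.11, limma adjusted p = 3.0e-10), and P1 was 2.13-fold above F22 (1.09, SE 0.11). The rise at P90 from P4 was 1.23-fold (0.29, SE 0.11, limma adjusted p = 0.029), and its call was lost when P4 replicate 1 or 2 or P90 replicate 1 or 2 was left out (limma adjusted p between 0.051 and 0.072).

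*Nr0b2* (SHP) had its main step over birth. It read 6.02, 6.17, 5.81 and 6.19 at F16, 6.27, 6.09, 6.01 and 6.20 at F20, and 6.65, 6.59, 6.33 and 6.24 at F22. At P1 it read 9.59, 9.17, 9.28 and 9.83, at P4 10.01, 9.90, 9.74 and 9.77, and at P90 8.30, 8.09, 8.37 and 8.04. F20 overlapped with both F16 and F22, while all F22 arrays were above all F16 arrays (log2 change 0.41, limma adjusted p = 0.010). P1 and P4 overlapped, and the adult arrays lay between the foetal and the neonatal ones.

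*Nr0b2* was 8.08-fold higher at P1 than at F22 (log2 change 3.02, SE 0.13, limma adjusted p = 7.6e-14), and 7.86-fold higher without P1 replicate 1. At P4 it was 0.38 above P1 (SE 0.13, limma adjusted p = 0.054), and without P1 replicate 1 it was 0.42 above (SE 0.14, limma adjusted p = 0.039), while *Cyp7a1* and *Cyp8b1* had fallen. At P90 it was 3.14-fold lower than at P4 (-1.65, SE 0.13, limma adjusted p = 1.1e-10), while *Cyp7a1* and *Cyp8b1* were higher. Between F22 and P1, however, *Nr0b2*, *Cyp7a1* and *Cyp8b1* had all risen (3.02, 1.72 and 5.06). Whether *Nr0b2* acted on these enzymes here was not tested. Within arrays, the signed log2 change of *Nr1h4* minus that of *Nr0b2* was 0.62 (SE 0.16) between F20 and F16 and 1.27 (SE 0.11) between F22 and F20. It was -1.93 (SE 0.15, and -1.86 without P1 replicate 1) between P1 and F22 and -0.61 (SE 0.16, and -0.68 without it) between P4 and P1. Between P90 and P4 it was 1.95 (SE 0.13), where *Nr1h4* changed by 0.29 and *Nr0b2* by -1.65. Each of these differences had an exact adjusted p of 0.041 with all arrays.

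By interval, 7 of the 10 members rose between F16 and F20 and none fell, against 9.22% of all probe sets that rose and 13.2% that fell. Between F20 and F22, 7 rose and 1 fell (*Slc27a5*), against 15.3% and 21.6% of all. All 10 rose between F22 and P1, against 14.8% that rose and 21.9% that fell among all probe sets, and all 10 also rose without P1 replicate 1. Between P1 and P4 none rose and 2 fell, against 4.87% and 6.1%. Between P4 and P90, 6 rose and 2 fell (*Abcb4* and *Nr0b2*), against 28.8% and 27.1%. The median log2 changes of the members over these 5 intervals were 0.76, 0.96, 1.89, -0.18 and 0.37 in order of time, and those of all probe sets lay between -0.04 and 0.06. Adjacent intervals share the arrays of 1 time point.

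**Figure D3:**
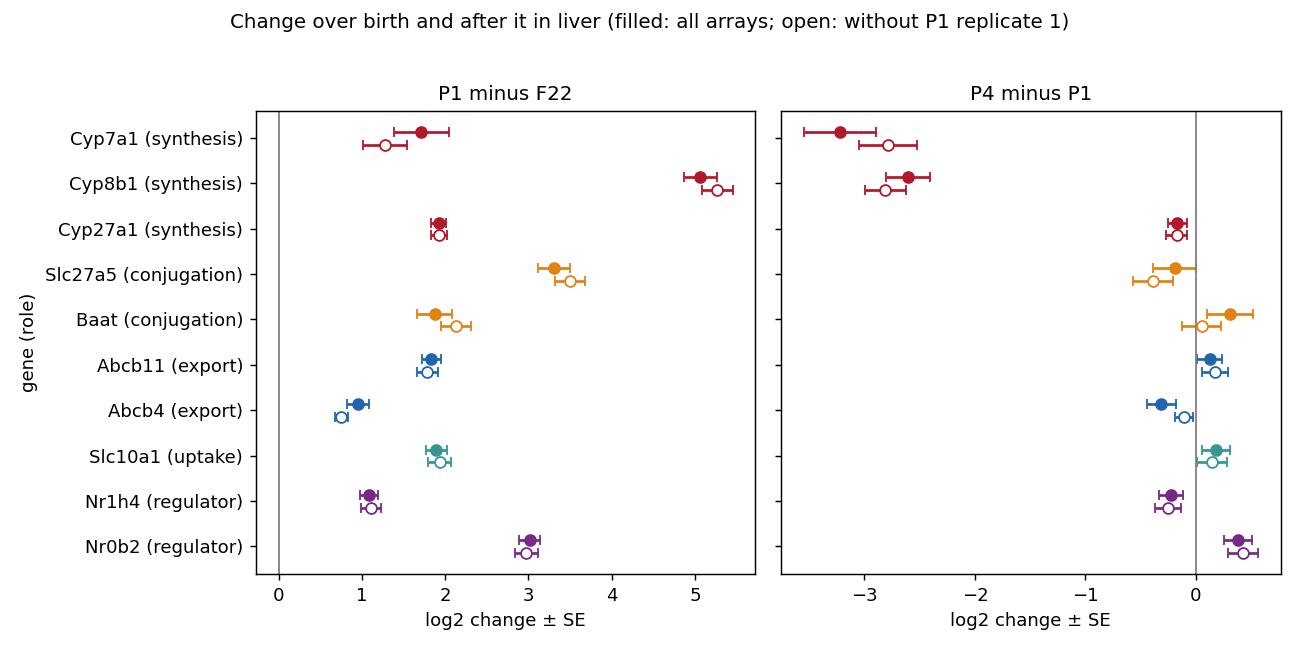
Log2 change (horizontal axes, ± SE from limma) of each bile acid gene in liver at P1 against F22 (left) and at P4 against P1 (right), with all arrays (filled) and without P1 replicate 1 (open). All 10 changes over birth lie above 0, from 0.96 for *Abcb4* to 5.06 for *Cyp8b1*, and after birth *Cyp7a1* (-3.22) and *Cyp8b1* (-2.61) lie far below the others.

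Cell type markers moved over the same ages. Between F22 and P1, 3 of 12 hepatocyte markers rose and none fell (median log2 change 0.03), against 14.8% of all probe sets that rose and 21.9% that fell. These markers averaged between 10.94 (*Apoa2*) and 13.83 (*Alb*) at F22, where the highest value on a liver array was 14.1. Changes near that top are compressed, so a small median does not show a steady share of hepatocytes. Over birth, all 10 erythroid markers fell (-0.72), 11 of 11 cell cycle genes fell (-1.01), and 1 of 11 macrophage markers rose and 2 fell (-0.22). Of 8 measured cholangiocyte markers, 2 rose (0.33). Without P1 replicate 1, 4 hepatocyte and 3 cholangiocyte markers rose, 3 macrophage markers fell, and the erythroid and cell cycle counts did not differ. Between F20 and F22, where *Cyp7a1* and *Nr1h4* had their main foetal steps, 8 of 12 hepatocyte markers rose and 1 fell (0.18), against 15.3% and 21.6% of all probe sets. Of the others, 7 of 10 erythroid markers fell (-0.53), 11 of 11 cell cycle genes fell (-0.55), 11 of 11 macrophage markers rose (0.74), and 1 cholangiocyte marker rose and 1 fell. Between F16 and F20, 9 of 12 hepatocyte markers rose (0.29) against 9.22% of all probe sets, none of the erythroid markers rose and 2 of 10 fell (-0.02), and 11 of 11 macrophage markers rose (0.95). Between P1 and P4, where *Cyp7a1* and *Cyp8b1* fell, 1 of 12 hepatocyte markers fell (median 0.06), and their mean level lay between 12.93 and 12.99 over the P4 arrays and between 12.95 and 13.02 over the P1 arrays. In that interval 3 of 10 erythroid markers rose and 1 fell (0.15), 3 of 11 macrophage markers rose (0.20) and 4 of 11 cell cycle genes rose (0.20). Of the cholangiocyte markers 1 rose and 1 fell, and of all probe sets 4.87% rose and 6.1% fell. Without P1 replicate 1, 4 macrophage markers and 2 cell cycle genes rose. Between P4 and P90, 10 of 10 erythroid markers fell (-3.26) and 11 of 11 cell cycle genes fell (-2.83), against 27.1% of all probe sets. Of the macrophage markers 1 rose and 6 fell (-0.35), and of the hepatocyte markers 2 rose and 3 fell (0.01). Over all ages the array means of the cholangiocyte list lay between 6.66 and 7.59. Between F16 and P90, 4 of its 8 measured markers rose and 2 fell (0.27), against 37.9% and 35.5% of all probe sets. Among those that rose was the bile acid carrier *Slc10a2*, known from cholangiocytes and ileum, which averaged 7.15 at P90 and 5.87 at F16. *Krt19* (-0.72) and *Muc1* (-0.58) fell. The part of these cell types in the changes of the members was not tested.

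Of 15 further synthesis enzymes of the pathway, 14 were measured. Between F22 and P1, 10 rose and none fell (median 0.78), against 14.8% of all probe sets that rose and 21.9% that fell, and without P1 replicate 1, 12 rose. The highest were *Amacr*, the racemase of the side chain (log2 change 2.36, SE 0.15), *Acot12* (2.04, SE 0.13), a cytosolic acetyl-CoA thioesterase not known as a step of bile acid synthesis, and *Hsd3b7*, which follows *Cyp7a1* in the pathway (1.75, SE 0.18). The lowest that passed were *Acot8* (0.57), the peroxisomal *Hsd17b4* (0.59) and *Akr1c14* (0.72). Between P1 and P4, 2 fell and none rose, against 6.1% and 4.87% of all, and without P1 replicate 1, 6 fell, against 8.8% of all. Between F16 and P90, 13 rose and none fell (median 2.16), against 37.9% and 35.5% of all, led by *Acot12* (4.90), the oxysterol hydroxylase *Cyp39a1* (4.66) and the steroid reductase *Akr1d1* (4.38), with *Ch25h* (0.30), *Cyp46a1* (0.41) and *Hsd17b4* (1.33) the lowest that passed. Their onset was at F20 in 4, at F22 in 2, at P1 in 4 and at P90 in 1, while 3 had none, against 1.13%, 3.63%, 3.23%, 3.48% and 87.8% of all probe sets. Leaving out *Acot12*, 9 of 13 rose between F22 and P1 (median 0.72) and 12 of 13 between F16 and P90 (median 2.13).

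Of 18 further genes listed as carriers of bile acids and biliary lipids, 16 were measured, of which 11 rose and 1 fell between F22 and P1 (median 0.42), against 14.8% and 21.9% of all probe sets, and 12 rose without P1 replicate 1. The list includes *Ephx1*, an epoxide hydrolase and thus an enzyme, which was among those that rose (0.48, and 1.99 between F16 and P90). The basolateral pump *Abcc3* (log2 change 1.36, SE 0.09), the canalicular *Abcc2* (1.34, SE 0.12) and the uptake carrier *Slco1b2* (1.28, SE 0.12) rose most. The efflux pump *Abcg2* fell (-0.46, SE 0.13), and *Slco1a4* (0.31) and the flippase *Atp8b1* (0.38) rose least. *Abcc3* averaged 8.20 at F16, 9.11 at F22, 10.48 at P1 and 8.03 at P90. Between F16 and P90, 12 rose and 2 fell (median 1.56), against 37.9% and 35.5% of all, and *Slco1a4* was the highest at 6.01, with a mean of 5.45 at F16, 5.65 at P1 and 11.46 at P90, followed by *Slco2b1* (3.92) and *Slco1b2* (3.61). *Abcg2* (-1.67) and *Abcb1b* (-0.76), a paralogue of *Abcb4*, fell, and *Slc51a* (0.21) rose least. The onset in this list was at F20 in 1, at F22 in 4, at P1 in 3 and at P90 in 3, while 5 had none. Of all probe sets, 1.13%, 3.63%, 3.23%, 3.48% and 87.8% were in these classes.

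Of 17 further regulators, 14 were measured, of which 6 rose and none fell between F22 and P1 (median 0.24), against 14.8% and 21.9% of all probe sets. Without P1 replicate 1, 10 rose and 1 fell (*Nr3c1*, the glucocorticoid receptor, named after its value was seen), against 16.3% and 22.5% of all. *Sult2a1*, a bile acid sulfotransferase listed here as a receptor target (log2 change 2.84, SE 0.35), *Nr1i3* (CAR, 2.07, SE 0.25) and *Nr1i2* (PXR, 1.12, SE 0.09) rose most, and *Hnf4a* (0.27), *Foxa2* (0.39) and *Rxra*, the partner of FXR (0.71), rose least. Between F16 and P90, 13 rose (median 1.43), against 37.9% of all, with *Sult2a1* (6.77), *Rxra* (2.28) and *Nr1i3* (2.14) the highest and *Gpbar1* (0.24), *Vdr* (0.38) and *Nr3c1* (0.99) the lowest that passed. The onset in this list was at F20 in 1, at F22 in 3, at P1 in 4 and at P90 in 3, while 3 had none. Of all probe sets, 1.13%, 3.63%, 3.23%, 3.48% and 87.8% were in these classes.

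Profiles were also compared by the root mean square distance between centred group means over the 6 time points, among 14505 other genes. *Abcb11* and *Slc10a1* were each other's nearest member (0.33), as were *Cyp27a1* and *Nr1h4* (0.35) and *Baat* and *Slc27a5* (0.55). *Cyp7a1* (1.04 to *Nr1h4*), *Cyp8b1* (1.13 to *Slc27a5*), *Abcb4* (0.98 to *Nr1h4*) and *Nr0b2* (0.69 to *Cyp27a1*) were further from any other member.

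Outside the members, the nearest gene to *Nr1h4* was the carrier *Slco1b2* (0.15), then *Klf9* (0.19), and the nearest to *Slc10a1* was *Acot12* (0.20), then *Cyp2a1* (0.26). *Abcb11* was nearest to *Amy1* (0.19) and *Acot12* (0.35), and *Cyp27a1* to *Cyp2d5* (0.19) and *Rapgef4* (0.23). *Abcb4* lay nearest to *Fabp2* (0.16) and *Galt* (0.17), *Nr0b2* to *Acsm5* (0.26) and *Lect2* (0.31), *Baat* to *Abca8a* (0.27) and *Acp3* (0.32), and *Slc27a5* to *Slc34a2* (0.38) and *Rarres2* (0.46). *Cyp8b1* had no near neighbour beyond *Orm1*, an acute phase protein (0.55), and *Slc25a47* (0.70), nor had *Cyp7a1* beyond *Pdk4*, a pyruvate dehydrogenase kinase (0.71), and *Ftcd* (0.89). These distances are descriptions over 6 group means.

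Skeletal muscle makes no bile and gave the level of change of these probe sets in another tissue. Between F16 and P4, 3 of the 10 rose in muscle and none fell, against 26.7% of all probe sets that rose and 35% that fell. The change was greater in liver than in muscle in 9 of 10 (limma interaction in 1 fit of both tissues, difference between 2.35 for *Cyp7a1* and 5.62 for *Abcb11*), against 24.1% of all probe sets. *Abcb4* was the exception, with 1.68 (SE 0.13) in liver and 1.51 (SE 0.07) in muscle, a difference of 0.17 (SE 0.15, limma adjusted p = 0.35).

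In muscle *Abcb4* read 8.25, 8.84, 8.51, 8.59 and 8.48 at P4, against 7.03, 7.24, 6.96, 6.99 and 6.90 at F16 (limma adjusted p = 1.1e-16). The rise lay after P1, where the 5 muscle arrays ranged from 7.099 to 7.242. *Cyp27a1* rose by 0.52 in muscle (SE 0.09, limma adjusted p = 8.2e-06), with arrays between 7.48 and 7.57 at P4 and between 6.86 and 7.14 at F16. *Slc10a1* rose by 0.38 (SE 0.14, limma adjusted p = 0.019), but its arrays overlapped, 1 P4 array read 7.20, and without that array the change was 0.19 (limma adjusted p = 0.11), and without P4 replicate 5, which read 6.66, it was 0.32 (limma adjusted p = 0.063). The number of members that rose in muscle depended on single arrays: without P4 replicate 1 it was 5 (*Baat* and *Nr0b2* added), and without P4 replicate 2 it was 6 (*Slc27a5*, *Abcb11* and *Nr1h4* added), with changes of 0.18 to 0.24 for these 5 genes.

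**Figure D4:**
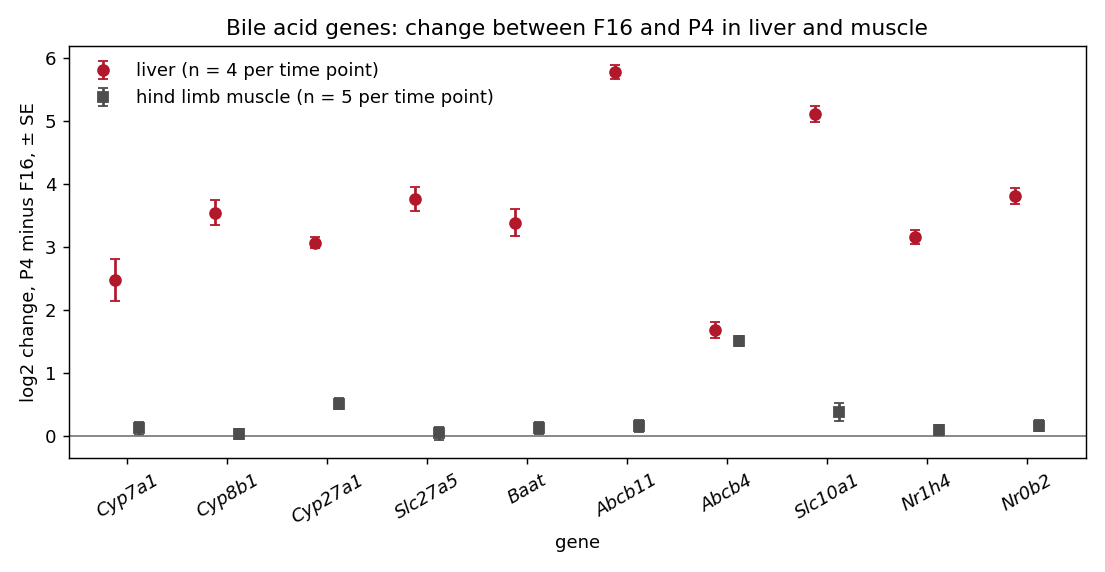
Log2 change at P4 against F16 (vertical axis, ± SE from limma) of each bile acid gene (horizontal axis) in liver (circles, n = 4 arrays per time point) and hind limb muscle (squares, n = 5). Changes in liver lie between 1.68 and 5.78 and those in muscle between 0.04 and 1.51, and the tissues come together at *Abcb4* alone.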

How the data were processed

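Gene expression was measured in 24 liver and 30 muscle samples of Wistar rats. The values deposited by the authors are log2 signals of each probe set on each array after RMA (background correction, quantile normalisation and median polish), made in Affymetrix Expression Console per the submitters' processing notes, whose version is not stated there. RMA keeps a floor of unspecific signal and compresses changes near it and near saturation. It puts levels on a scale of the probe set, so that levels were compared within a probe set and the tissues, normalised apart, only by changes.

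Probe sets with 1 symbol in the platform annotation were used (15310), and 323 with several and 13581 with none were left out. The functions lmFit and eBayes of limma 3.58.1 (R 4.3.3) were used with the 6 time points of a tissue as groups, and p-values were adjusted over all 15310 by Benjamini-Hochberg at 0.05. The F-test covers 6 liver time points. Differences between 2 members were tested with SciPy 1.17.1 in Python 3.11.15. The fit was tested on simulated data. No weak probe set was removed, no depth exists for arrays, and 4 or 5 arrays per group limit the precision.

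The members and gene lists were chosen with earlier results of these data known. Named were all members, the 3 highest and 3 lowest changes of each list at P1 against F22 and P90 against F16 among those that passed, and for each member the nearest other member and 2 other genes. A gene with several probe sets was described by the brightest. Alternatives were the unadjusted p, brighter probe sets, all probe sets, other priors, array weights, quantile normalisation again, median centring, fewer time points, the replicate number as a block, and leaving out each array. The counts of the lists without P1 replicate 1 or *Acot12*, and the shares of the rise on the signal scale, were added after the data were seen. Replicate numbers were treated as not pairing the samples, since same-numbered arrays were on average little more alike than others, though this was not tested against chance.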

Additional observations from a re-analysis of the deposited data

Results flagged for a closer look

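Single arrays stood apart from the other arrays of their group in 10 of the 120 gene and group combinations examined (7 of 60 in liver, 3 of 60 in muscle), by a gap to the nearest array that was large for the range of the group. Chance flags about 1 in 20 groups. In P1 liver, replicate 1 was the array concerned in 4 genes. *Cyp7a1* read 12.95 there, against 11.05 to 11.34 in the other 3 arrays, and *Abcb4* read 12.15, against 11.28 to 11.40. *Cyp8b1* read 11.64, against 12.43 to 12.48, and *Baat* read 8.89, against 9.86 to 9.99. The array label of this sample ends in a number and those of the other P1 arrays end in letters, and the labels do not say what this means. Its part in these values was not tested.

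In other liver groups, *Baat* read 8.30 in F22 replicate 3 (7.54 to 7.63 in the others), *Abcb4* 10.96 in P4 replicate 4 (11.31 to 11.34) and *Slc10a1* 9.52 in F20 replicate 3 (10.17 to 10.27). In muscle, *Cyp27a1* read 7.61 in F22 replicate 5 (7.05 to 7.12), and *Slc27a5* read 6.19 in F16 replicate 4 (6.38 to 6.42) and 5.88 in P4 replicate 2 (6.48 to 6.66).

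The change between F16 and P4 was greater in liver than in muscle in 9 members (limma interaction, all passed), whose muscle signals were not shown to be above unspecific signal. The difference was 5.62 for *Abcb11*, 4.73 for *Slc10a1*, 3.71 for *Slc27a5*, 3.64 for *Nr0b2* and 3.51 for *Cyp8b1*. It was 3.25 for *Baat*, 3.07 for *Nr1h4*, 2.56 for *Cyp27a1* and 2.35 for *Cyp7a1*.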

How the results depend on the processing

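Of 574 changes of single members under other settings, 559 kept their direction and side of the threshold, 12 newly passed and 3 no longer passed. The 3 were *Cyp7a1* at F20 against F16 (0.94), with adjusted p of 0.068 without P90, 0.063 with the trended robust prior and 0.060 over all probe sets. The number of members that rose at P4 against P1 was 1 instead of 0, with *Nr0b2* added, under quantile normalisation again, the trended robust prior, an unadjusted p and the replicate block, and between 0 and 1 with 1 array left out. The replicate block changed no other count by over 1.5 times. The numbers were treated as not pairing the samples. Over 60 same-numbered pairs the correlation of deviations lay between -0.20 and 0.28 (mean 0.0017), and 10 of 24 arrays were closest to one of their own number. These values were not tested against chance, so that a pairing is not excluded. Limited to probe sets above the median signal, *Nr0b2* dropped out, and 1 instead of 2 members fell at P90 against P4 and 0 instead of 1 had their onset at P1.

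With each array left out in turn, between 1 and 2 members had their onset at P1, between 0 and 1 fell at F22 against F20, and between 2 and 6 rose in muscle. With 7 arrays the exact permutation test cannot go below 0.0571, so 0 of the 30 differences between members passed and nothing follows about their stability. Values near 0 changed sign: *Cyp8b1* at F20 against F16 (-0.072 to 0.17), *Cyp7a1* minus *Cyp27a1* (-0.64 to 0.042) and *Slc10a1* minus *Abcb11* (-0.021 to 0.18) at P1 against F22, and *Cyp7a1* minus *Cyp8b1* (-0.94 to 0.023) and *Slc10a1* minus *Abcb11* (-0.029 to 0.14) at P4 against P1. Where no reason is given, the cause was not tested.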
